A study of Monodelphis domestica and Mus musculus and Sus scrofa with 73 samples.

Results

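In the limbs of embryonic bats (Carollia perspicillata), 15 genes kept a difference between forelimb and hind limb through all 3 stages sampled, 10 of them higher in the forelimb and 5 higher in the hind limb. They were taken from 27026 genes in the bat tables, of which 11752 met the conditions on length (a mean of at least 1000 bases) and on level (a mean of at least 1 CPM, the count scaled to the library's sum). D is the mean log2(CPM + 0.5) of the forelimb libraries minus that of the hind limb libraries at a stage. A gene was chosen when D was at least 0.58 in size (1.49-fold) with the same sign at stages 13, 14 and 15, and when its level moved by less than 0.7 (1.62-fold) between neighboring stages in at least 1 limb. These limb differences chose the genes, so they are given as a description. Calls of these differences by a model fitted to all genes are counted further on, and nothing is read from them. The tables name genes by assembly numbers only and pair them with no gene symbols, the reference tables used here are of other species, and so 2 genes in each direction are named by number and the other 11 are told apart by their length in bases.

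Forelimb and hind limb buds are built from the same tissues and largely the same signals, and their identities are set apart by a small number of transcription factors. In mammals Tbx5 marks the forelimb field, Pitx1 and Tbx4 mark the hind limb field, and several Hox genes differ in level between the limbs. In bats the forelimb later lengthens into the wing, while the hind limb stays short. Whether any of these regulators is among the 15 genes was not analysed here, because the numbers carry no symbols, and for the same reason the labelled tissue could not be checked against its markers.

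The bat libraries came from whole limbs of embryos collected in the field in Trinidad, with no treatment and no strain given. Forelimb and hind limb were each sequenced in 3 libraries at stage 13 (the ridge), 3 at stage 14 (the bud) and 2 at stage 15 (the paddle). All 5 stage 14 and 15 forelimb libraries except the third at stage 14 carry the wording ES (early stage, stage 14) or LS (late stage, stage 15), whereas the hind limb libraries carry stage numbers only, so at stage 15 limb and wording cannot be told apart. The stage 13 forelimb libraries carry stage numbers too. Forelimb changes, and changes of D, from stage 13 to 15 therefore cannot be told apart from wording. From stage 13 to 14 only the third stage 14 forelimb library shares the wording of stage 13. Nothing in the labels says that libraries of a group came from separate embryos, so p-values measure the spread between these libraries, which may be technical. Names of the deposited tables carry further numbers that the labels do not explain and that were not used here. One such number occurs for forelimb replicate 1 and hind limb replicate 3 of stage 13, so these limbs may share an animal, and every SE and p-value treats them as separate. A library held between 13600741 and 61814821 expected counts (RSEM's estimate of reads per gene), and 3 counts correspond to 0.0485 to 0.221 CPM. In stage 13 forelimb replicate 3, 23.1% of the genes shorter than 300 bases were detected (1 or more counts after rounding), near the stage 13 hind limb libraries (24.2% to 25.7%) and above forelimb replicates 1 and 2 (11.7% and 8.90%). Hind limb replicate 3 of stage 14 also stood apart, at 19.8% against 11.6% in each of replicates 1 and 2. The part of these libraries in the results was not tested. Counts of calls, counts without overlap and the tested stage 13 changes are also given without stage 13 forelimb replicate 3. In whole limbs, fewer cells of a type and less RNA per cell cannot be told apart.

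Among the genes higher in the forelimb, comp122265_c0 (3424 bases, 2 isoforms) had the largest difference at each stage. At stage 13 it stood at 67.7, 74.1 and 102.7 CPM in the forelimb libraries and at 4.92, 7.30 and 2.89 CPM in the hind limb libraries. At stage 14 the forelimb libraries held 141.5, 90.5 and 124.4 CPM and the hind limb libraries 14.2, 8.60 and 3.83 CPM. At stage 15 the values were 132.6 and 117.5 CPM against 7.56 and 11.6 CPM. Every forelimb library, at any stage, stood above every hind limb library. D was 3.95 ± 0.39 (SE, n = 3 and 3) at stage 13, 3.82 ± 0.55 (n = 3 and 3) at stage 14 and 3.67 ± 0.30 (n = 2 and 2) at stage 15, or 15.4-fold, 14.1-fold and 12.7-fold. Its level moved by less than 0.7 from stage to stage in both limbs. Fitted by edgeR, the stage 13 log2 fold change was 4.06, and 3.93 without forelimb replicate 3. RSEM gives an interval for the FPKM (fragments scaled to effective length and to library size) of each gene in each library, which covers counting and mapping error in that library. For comp122265_c0 the lowest forelimb bound was 19.7 FPKM and the highest hind limb bound was 4.61 FPKM.

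**Figure D1:**
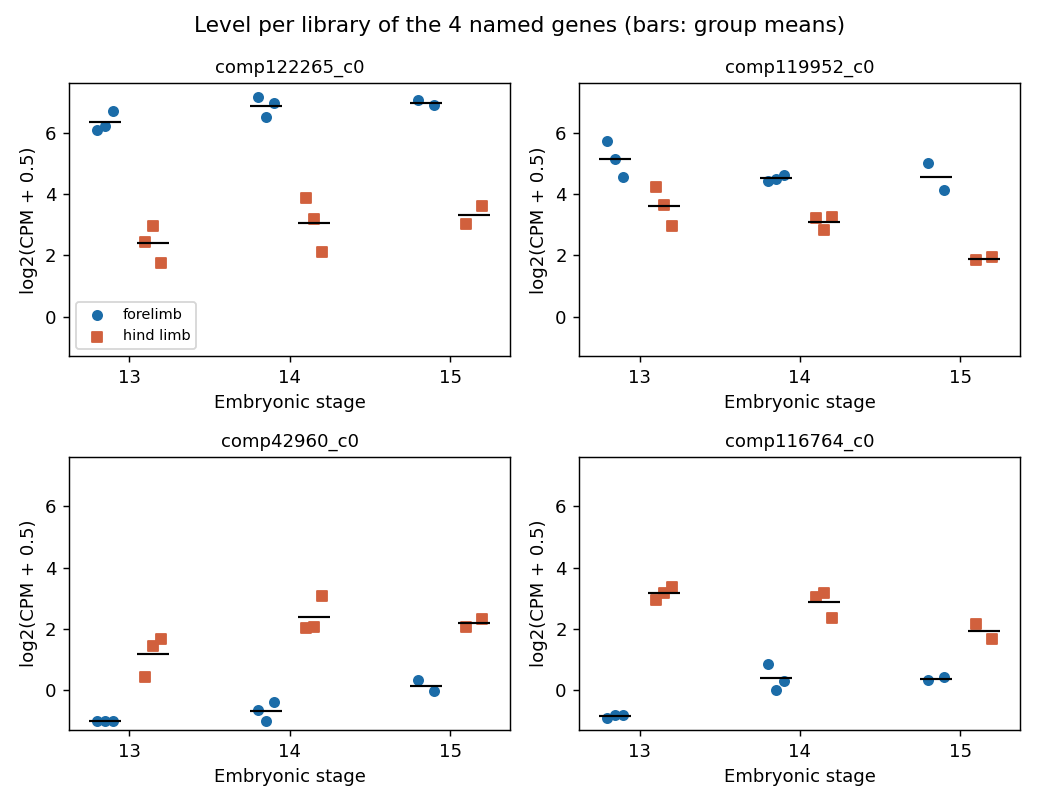
Level of the 4 named genes in each of the 16 libraries, as log2(CPM + 0.5) on the vertical axis, by embryonic stage on the horizontal axis, with circles for forelimb libraries, squares for hind limb libraries and black bars for group means. The limbs do not overlap at any stage in these genes, and comp42960_c0 lies on the floor of the scale in the 3 forelimb libraries of stage 13.

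The second gene named as higher in the forelimb, comp119952_c0 (2582 bases, 1 isoform), stood at similar forelimb levels at stages 14 and 15, while that of the hind limb fell between them. At stage 13 it held 52.2, 35.0 and 23.1 CPM in the forelimb and 18.2, 12.0 and 7.18 CPM in the hind limb. At stage 14 the values were 21.1, 22.1 and 23.8 CPM against 8.76, 6.52 and 9.05 CPM. At stage 15 they were 31.6 and 16.9 CPM against 3.08 and 3.32 CPM. The limbs did not overlap within any stage, although the highest stage 13 hind limb library stood above the lower stage 15 forelimb library. D was 1.54 ± 0.50 at stage 13, 1.42 ± 0.15 at stage 14 and 2.68 ± 0.44 at stage 15 (SE), or 2.91-fold, 2.67-fold and 6.40-fold. Fitted by edgeR, the stage 13 log2 fold change was 1.63, and 1.91 without forelimb replicate 3. In the hind limb the fall from stage 14 to 15 passed edgeR's quasi-likelihood test across all genes (log2 fold change -1.38, SE 0.286, adjusted p = 0.0277). The change of D with stage did not pass (adjusted p = 0.986 for the limb-by-stage term in edgeR's fit of all 16 libraries).

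Among the genes higher in the hind limb, comp42960_c0 (1742 bases, 1 isoform) had no count in any forelimb library of stage 13. There the hind limb libraries held 0.860, 2.24 and 2.72 CPM (14, 38 and 64 expected counts). At stage 14 the forelimb libraries held 0.143, 0 and 0.276 CPM and the hind limb libraries 3.60, 3.70 and 7.98 CPM. At stage 15 the values were 0.750 and 0.493 CPM against 3.67 and 4.56 CPM. The limbs did not overlap at any stage, nor over all 8 libraries of each. At stage 13 the hind limb mean was at least 13.5-fold higher than the mean forelimb floor of 0.144 CPM (3 counts per library). With counts pooled per limb, 0 against 116, the hind limb was at least 38.5-fold higher at stage 13 (lower bound of the 95% exact interval). By the same measure it was 27.9-fold higher at stage 14 (95% exact interval 16.2 to 52.8) and 6.27-fold higher at stage 15 (4.03 to 10.2). These pooled ratios were added after the values were seen, and their intervals cover counting error only. D, which the 0.5 added to each value holds down at such low levels, was -2.19, -3.07 and -2.04.

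The other gene named as higher in the hind limb, comp116764_c0 (1247 bases, 1 isoform), was near 0 in the forelimb at stage 13 and detectable there later. The forelimb libraries of stage 13 held 1, 2 and 1 counts (0.0339, 0.0726 and 0.0735 CPM) and the hind limb libraries 7.18, 8.53 and 9.82 CPM. At stage 14 the values were 1.32, 0.507 and 0.732 CPM against 7.78, 8.60 and 4.69 CPM. At stage 15 they were 0.750 and 0.862 CPM against 3.94 and 2.73 CPM. Thus every hind limb library stood above every forelimb library, and the distance was smaller at each later stage. D went from -4.00 ± 0.13 to -2.48 ± 0.35 and -1.54 ± 0.24 (SE). The ratio of pooled counts was 153 at stage 13 (95% exact interval 59.5 to 565, from 4 forelimb counts), 8.88 at stage 14 (6.97 to 11.5) and 4.44 at stage 15 (2.98 to 6.86). In the forelimb the rise from stage 13 to 14 passed edgeR's quasi-likelihood test across all genes (log2 fold change 3.77, SE 0.650, adjusted p = 0.0197). Without forelimb replicate 3 of stage 13 it was 3.87 (SE 0.746, adjusted p = 0.0235 in edgeR's test), an alternative added after the data were seen.

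The remaining 8 genes higher in the forelimb differed far less. Their D ranged from 0.60 to 1.33 at stage 13, from 0.61 to 1.24 at stage 14 and from 0.65 to 0.94 at stage 15, that is, from 1.51-fold to 2.52-fold over all stages. Of these, the 2493-base gene differed about equally at the 3 stages. At stage 13 it stood at 14.6, 13.0 and 11.3 CPM in the forelimb and at 8.04, 8.30 and 7.44 CPM in the hind limb. At stage 15 it stood at 26.2 and 38.4 CPM against 20.2 and 18.6 CPM, so that the levels of both limbs were higher than at stage 13, with D at 0.67, 0.64 and 0.69. At stage 15 edgeR's fitted log2 fold change was 0.72, and 0.41 without forelimb replicate 2. The 6782-base gene, with 10 isoforms the one with the most, held 20.8, 17.9 and 30.7 CPM against 13.4, 13.4 and 15.0 CPM at stage 13 and 29.8 and 28.4 CPM against 17.0 and 13.0 CPM at stage 15. The longest, of 8651 bases and 7 isoforms, went with D of 0.88, 0.71 and 0.79. The 2491-base gene, the one nearest the limit (D of 0.60 at stage 13), reached 0.93 and 0.90 at the later stages.

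In 4 of the 10 forelimb genes, those of 1023, 1707, 1857 and 2264 bases, the limbs overlapped at stage 13. The 2264-base gene held 2.10, 2.65 and 1.62 CPM in the forelimb and 4.30, 0.471 and 0.553 CPM in the hind limb, so that 1 hind limb library stood above all forelimb libraries. Its D of 0.61 at stage 13 had an SE of 0.77. The 1857-base gene held 6.37, 4.61 and 3.75 CPM against 0.798, 5.59 and 0.681 CPM, and here too a hind limb library, replicate 2, lay among the forelimb values. In the 1023-base and 1707-base genes hind limb replicate 2 likewise reached 3.18 and 22.9 CPM, above the lowest forelimb values of 1.49 and 17.5 CPM. At stages 14 and 15 the limbs did not overlap in any of these 4 genes.

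The remaining 3 genes higher in the hind limb differed by D of -1.79 to -2.92 at stage 13, of -1.09 to -2.33 at stage 14 and of -0.70 to -1.29 at stage 15. The 1051-base gene had the highest FPKM of the 5, and its level was lower at stage 15 than at stage 13 in both limbs. It held 5.10, 5.76 and 4.75 CPM in the forelimb against 20.5, 17.1 and 20.1 CPM in the hind limb at stage 13, and 2.19 and 1.29 CPM against 4.97 and 4.79 CPM at stage 15. Its hind limb fall from stage 14 to 15 passed edgeR's test across all genes (log2 fold change -1.66, SE 0.371, adjusted p = 0.0366). The 1927-base gene went from 12.1, 12.1 and 5.14 CPM in the hind limb at stage 13 to 0.456 and 0.415 CPM at stage 15, when the forelimb held 0.161 and 0 CPM. Its pooled ratio was 11.0 at stage 13 and 5.92 at stage 14 (95% exact intervals 8.4 to 14.7 and 4.2 to 8.5). With 3 forelimb and 24 hind limb counts at stage 15, the ratio was 5.16 with a 95% exact interval of 1.57 to 26.7. That interval holds the ratios of both earlier stages. At stage 14 its limbs overlapped, because hind limb replicate 2 held 0.275 CPM, below the forelimb libraries of 0.357 and 0.705 CPM. The 1439-base gene overlapped at stage 14 as well, where forelimb replicate 3 (3.22 CPM) stood above hind limb replicate 3 (2.01 CPM), and it did not overlap at stages 13 and 15.

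**Figure D2:**
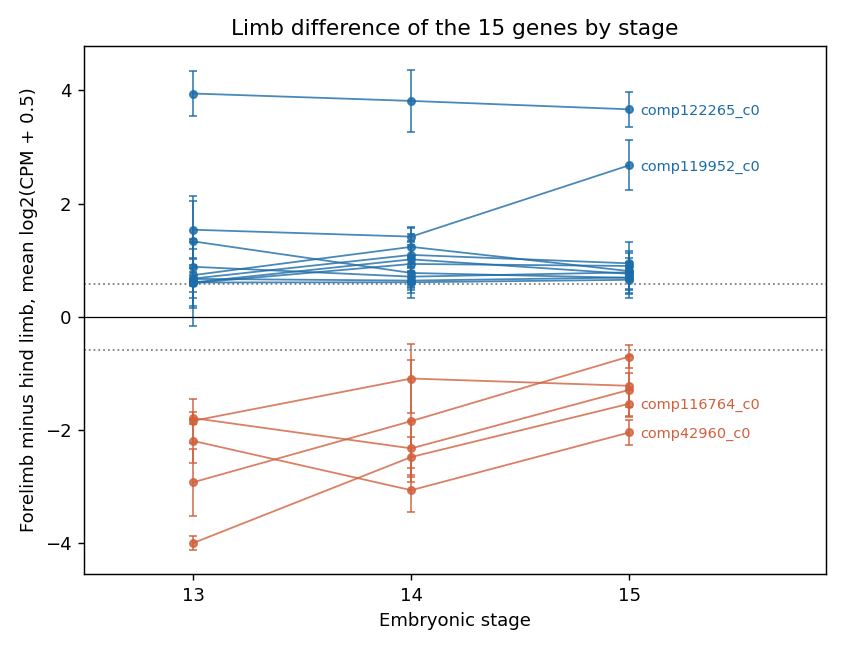
Forelimb minus hind limb difference D, in log2(CPM + 0.5) units on the vertical axis, of each of the 15 genes at stages 13, 14 and 15 on the horizontal axis, with bars for the SE between libraries, dotted lines at the limit of 0.58 in either direction, blue for genes higher in the forelimb and orange for genes higher in the hind limb. All 5 orange lines end nearer to 0 than they start, while 7 of the 10 blue lines end farther from 0, some lines by less than their SE.

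The size of the difference at stages 13 and 15 was compared in each of the 2 directions, with no test. Between these stages the wording of the forelimb labels differs as well. All 5 genes higher in the hind limb had a smaller difference at stage 15 than at stage 13, with a median size of D of 2.19, 2.33 and 1.29 at stages 13, 14 and 15. Of the 10 genes higher in the forelimb, 7 had a larger difference at stage 15 than at stage 13, with medians of 0.71, 0.97 and 0.80. Some of these changes were smaller than the SE of D. The 2493-, 1707-, 1023- and 2264-base genes changed by 0.025, 0.047, 0.071 and 0.15, with stage 13 SEs of 0.11, 0.41, 0.58 and 0.77. D of comp42960_c0 was -2.19 ± 0.38 at stage 13 and -2.04 ± 0.22 at stage 15 (SE). At stage 13 its forelimb held 0 counts, so that the 0.5 added to each value caps the size of D. With counts pooled, its hind limb was at least 38.5-fold higher at stage 13 (lower bound of the 95% exact interval). At stage 15 it was 6.27-fold higher (4.03 to 10.2), and both intervals cover counting error only. The 0.5 also holds down D of the 1927-base gene at stage 15, when both limbs lay below 0.5 CPM. Over all 11752 genes with sufficient length and level the median size of D was 0.17, 0.15 and 0.15. The 5 genes came to the smaller difference in different ways. Between stages 13 and 15 the level of comp42960_c0, as mean log2(CPM + 0.5), was higher by 1.16 in the forelimb and by 1.01 in the hind limb. That of comp116764_c0 moved by 1.22 in the forelimb and by -1.24 in the hind limb. The 1439-base gene moved by 0.61 in the forelimb and by -0.012 in the hind limb. In the 1051-base and 1927-base genes both limbs were lower at stage 15, by -1.37 and -1.14 in the forelimb and by -1.87 and -3.37 in the hind limb. Averaged over the 5 genes, log2(CPM + 0.5) in the hind limb went from 2.90 ± 0.22 (SD, n = 3 libraries) through 2.58 ± 0.40 (n = 3) to 1.81 ± 0.026 (n = 2), with 4 of the 5 genes lower at stage 15 than at stage 13. In the forelimb, where 3 of the 5 were higher and 2 lower at stage 15, the same average was 0.35 ± 0.17, 0.42 ± 0.36 and 0.45 ± 0.32, which differ by less than the SD between libraries. Averaged over the 10 forelimb genes, the forelimb went from 3.80 ± 0.048 through 4.04 ± 0.010 to 4.20 ± 0.0076 and the hind limb from 2.64 ± 0.32 through 2.82 ± 0.14 to 2.94 ± 0.013, with 8 of the 10 higher at stage 15 than at stage 13 in each limb. These averages describe genes that were chosen by limb, and no test was made of them. As shares of a library, the 10 genes summed to 211.3 to 312 CPM in forelimb and 68.7 to 102 CPM in hind limb libraries, and the 5 genes to 3.94 to 8.57 CPM and 18.2 to 49.5 CPM.

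**Figure D3:**
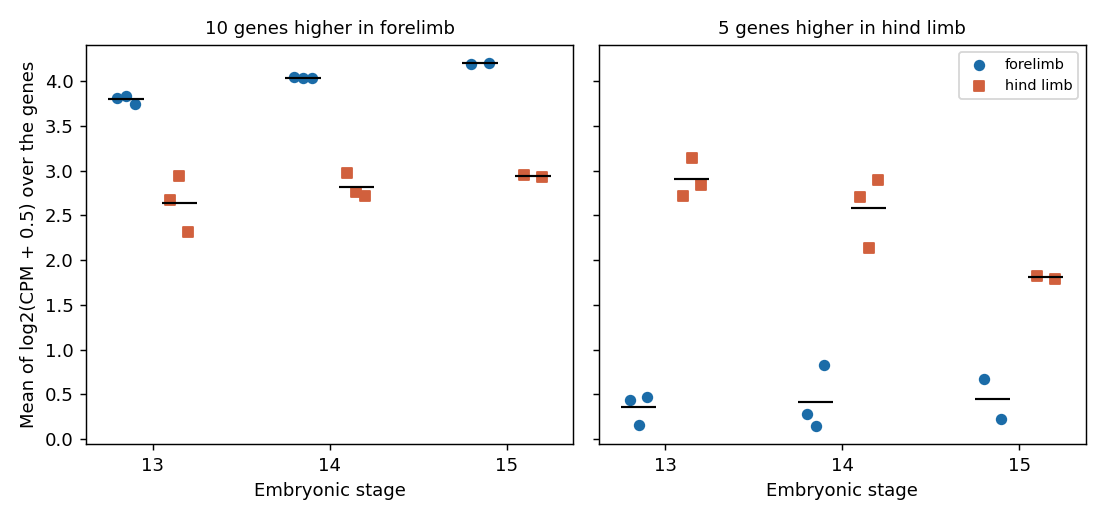
Mean of log2(CPM + 0.5) over the 10 genes higher in the forelimb (left) and over the 5 higher in the hind limb (right), on a shared vertical axis, for each library by embryonic stage, with circles for forelimb, squares for hind limb and bars for group means. In the right panel the hind limb libraries lie between 2.72 and 3.15 at stage 13 and at 1.83 and 1.79 at stage 15, an average over genes that moved differently.

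Few of the 15 genes passed the test at a single stage. A gene is called here when edgeR's quasi-likelihood test gives it a Benjamini-Hochberg adjusted p-value under 0.05 over all genes tested. Because the genes were chosen by these same differences in these same libraries, the counts restate the choice, and nothing is read from them. All 15 could be tested at stages 13 and 14 and 14 at stage 15, where the 1927-base gene had too few counts. At stage 13, 1 of the 10 forelimb genes and 2 of the 5 hind limb genes were called, where 0.0272% and 0.0475% of all 14729 genes tested were called as higher in those limbs. At stage 14 the counts were 2 and 2, against 0.115% and 0.0405% of 14829 genes. At stage 15 they were 2 and 1, against 0.681% and 0.142% of 14826 genes. In the fit of all 16 libraries, the mean of the 3 limb differences was called in 4 forelimb and 4 hind limb genes, against 0.321% and 0.115% of 16511 genes. Without stage 13 forelimb replicate 3, 1190 of 15182 genes tested were called at stage 13, in place of 11 of 14729. Of the 15, 9 were among them, in place of 3. For the mean of the 3 limb differences, 9 of the 15 were then called in place of 8. Of all genes tested, 297 of 16418 were then called, in place of 72 of 16511.

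Counted by library rather than by model, all forelimb libraries stood above all hind limb libraries in 6 of the 10 forelimb genes at stage 13 (5.13% of the 11752 genes), 10 at stage 14 (11.3%) and 10 at stage 15 (19.7%). Without forelimb replicate 3 it was 7 of the 10 at stage 13, where 14.4% of the 11752 genes were free of overlap in that direction. All hind limb libraries stood above in 5 of the 5 hind limb genes at stage 13 (5.17%), 3 at stage 14 (4.73%) and 5 at stage 15 (16.1%). Without forelimb replicate 3 it was again 5 of the 5 at stage 13, against 26.0% of the 11752 genes. Over all 8 libraries of each limb, whatever the stage, 2 forelimb and 2 hind limb genes were free of overlap, against 0.0340% of the 11752 genes in each direction. Of the 4 genes named above, comp122265_c0, comp42960_c0 and comp116764_c0 were among these, and the other was the 6782-base gene. RSEM's FPKM intervals did not overlap between the limbs at any stage in 2 of the forelimb genes (0.153% of the 11752 genes) and 3 of the hind limb genes (0.0425%).

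In the scatter of D at stage 15 against stage 13, a few genes outside the 15 lie as far out, since 40 genes passed the limit on D at all 3 stages (29 higher in the forelimb, 11 higher in the hind limb) and 25 of them moved too much between stages. Taking each step between stages in the steadier limb, the larger step was at most 0.67 in the 15 and at least 0.72 in the 25. On the limit of 0.58 itself, the nearest gene inside had 0.60 in the forelimb direction and 0.70 in the hind limb direction, and the nearest outside had 0.55 and 0.57. The shortest of the 15 had 1023 bases and the lowest mean level was 1.94 CPM, and the nearest genes that failed only there had 981 bases and 0.897 CPM. Of the 15, 6 moved by less than 0.7 at both steps in both limbs (5 forelimb genes and 1 hind limb gene).

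**Figure D4:**
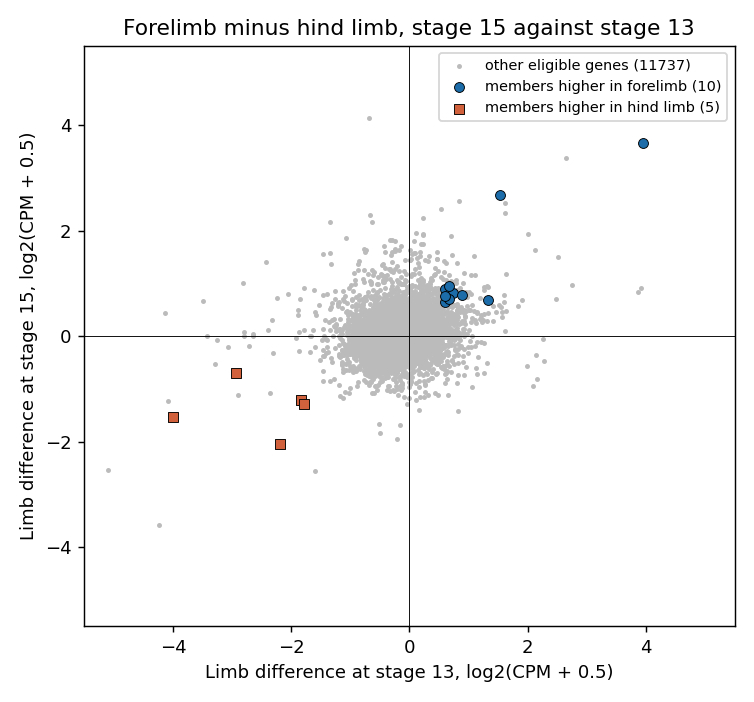
Forelimb minus hind limb difference in log2(CPM + 0.5) at stage 13 (horizontal axis) and stage 15 (vertical axis) for the 11752 genes with sufficient length and level, in gray, with the 10 forelimb genes as blue circles and the 5 hind limb genes as orange squares. The circle farthest out is comp122265_c0, at 3.95 and 3.67, and 8 of the 10 circles lie between 0.60 and 1.33 on the horizontal axis.

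To see how the choice fares in libraries it did not use, the genes were chosen again 8 times, each time without the forelimb and hind limb library that share a replicate number at a stage, and the sign of D was read in the pair left out. Between 12 and 20 genes were chosen each time, of which 10 to 13 belonged to the 15. Over the 8 choices, 101 of 119 signs (84.9%) were the same in the pair left out, and 75 (63.0%) were also at least 0.58 in size. Among all genes with sufficient length and level the sign was the same in 47.9% to 68.7%, and 4.34% to 19.3% were also at least 0.58 in size. The lowest counts were 10 of 13 without replicate 1 of stage 14 and 15 of 20 without replicate 3 of stage 14. Without replicate 3 of stage 13, 13 of 15 had the same sign. When the limit on D was 1, between 4 and 7 genes were chosen each time, and 43 of 45 signs (95.6%) were the same. The 8 choices share most of their libraries and genes, so these shares are descriptions with no test.

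With single libraries left out of the choice, a check added after the data were seen, most chosen genes lay nearer to their own limb's mean than to the other limb's mean at that stage. The counts ran from 9 of 14 (stage 15 forelimb replicate 1) to 13 of 13 (stage 14 forelimb replicate 1), where 39.8% and 60.1% of all genes with sufficient length and level lay nearer to the forelimb. Over the 16 libraries the share of all those genes nearer to their own limb ran from 32.2% to 60.8%. The lowest share was that of stage 13 forelimb replicate 3, for which 10 of 15 chosen genes lay nearer to the forelimb. That library also held the highest stage 13 level of comp122265_c0 (102.7 CPM), 1 count of comp116764_c0 and none of comp42960_c0. Over the 16 choices, 5 genes were chosen every time, namely the 4 named ones and the 1439-base gene. The others were chosen 11 to 15 times.

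Other features of the 15 genes are given beside those of the 11752 genes as a description. Length and level were conditions of the rule, and D rests on few libraries, so level and spread are not independent of the choice. Of the 15, 11 (73.3%) had 1 isoform, among them all 5 hind limb genes, where 33.6% of the 11752 genes had 1. The 11752 genes were not matched to the 15 on level or length. None of the 15 shared its assembly component with another gene of the tables. Of the 11752 genes 6.91% did, a share so low that none among 15 is not read as a difference. The median length was 1927 bases against 2534 bases. Levels compared between genes per length were low: the median of mean FPKM was 3.90 (range 1.35 to 19.7) against 12.4, and 13 of the 15 lay below the median of the 11752 genes. The pooled SD between libraries of a group, on the log2(CPM + 0.5) scale, had a median of 0.43 in the 15 genes and 0.25 in the 11752 genes.

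The rule used group means and not the deviations of libraries from them, although the median spread within groups was larger in the chosen genes. Across the 16 libraries, the mean Pearson correlation of these deviations was -0.012 over the 45 pairs of forelimb genes (21 positive). It was 0.0063 over the 10 pairs of hind limb genes (6 positive) and 0.0059 over the 50 pairs between the sets. Over all pairs of the 11752 genes it was 0.028. The libraries of a group share their mean, and all pairs share the same libraries, so these values are descriptions with no p. Single pairs, which can cancel in a mean, ranged from -0.68 to 0.75 among the forelimb genes and from -0.74 to 0.49 among the hind limb genes.

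Between neighboring stages 0 to 2 of the 15 genes were called at each step. The rule limited the movement in at least 1 limb, so these counts are a description. As shares they lay above those of all genes in the forelimb from stage 13 to 14 and the hind limb from stage 14 to 15. Only 1 and 2 genes were called there, and at the other steps the shares lay below. From stage 13 to 14, 1 of 14 genes tested was called in the forelimb (comp116764_c0, higher at stage 14), where 3.03% of all genes tested were called, and 7 of the 14 had an unadjusted p under 0.05, as had 2818 of all 14630 genes. Without forelimb replicate 3 of stage 13, 3 of the 14 were called, among 676 of 14980 genes tested in place of 444 of 14630. In the hind limb 0 of 15 were called in edgeR's test (10.6% of all genes), and 2 had an unadjusted p under 0.05, as had 4330 of all 15007 genes. From stage 14 to 15, 0 of 14 were called in the forelimb (12.8% of all genes in edgeR's test), with 2 at an unadjusted p under 0.05, as were 4404 of all 15015 genes. In the hind limb 2 of 15 were called, comp119952_c0 and the 1051-base gene, both lower at stage 15, against 4.97% of all genes, and 5 had an unadjusted p under 0.05, as had 2860 of all 15305 genes. No other tool was run on these comparisons between stages. The limb difference itself changed with stage in 1 of the 15 genes, comp116764_c0 (adjusted p = 0.0311 in edgeR's limb-by-stage test of 16 libraries), where 0.0363% of 16511 genes were called. With a replicate block the call was lost (adjusted p = 0.0717 in edgeR's test).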

How the data were processed

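RNASeq tables of 16 bat libraries were analysed, and files of the other species were not used here. The authors trimmed reads, built 1 Trinity assembly from the bat reads, retained contigs with a SwissProt match and quantified them by RSEM, so there is no genome build. The deposited expected counts are RSEM estimates of reads per gene, not normalized, from which CPM was computed by the library sum. The deposited FPKM values and their intervals (level not given in the sources used here) are scaled by RSEM to effective length and library size, and the deposited TPM values were not used. Lengths came from the same tables. RSEM shares reads among similar sequences, which adds uncertainty to genes with close relatives.

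The genes, lists and tests were chosen with earlier results of these data known. Expected counts were rounded and tested with edgeR 4.0.16 (R 4.3.3; quasi-likelihood, robust, TMM) for genes with a count of at least 10 in as many libraries as the smaller group, with only the 2 groups compared in a fit. The mean limb difference and the limb-by-stage term used all 16 libraries in 6 groups. SEs of fitted changes were the log2 fold change over the square root of F. Named genes were the 2 in each direction with the largest smallest-stage D. Pairs of libraries within groups differed by chi-square of 18.9 to 72.2 per degree of freedom, so none was a copy. Alternatives included DESeq2 1.42.0. Tables and plots were made in Python 3.11.15 (scipy 1.17.1, numpy 2.4.6, pandas 2.3.3, matplotlib 3.10.9).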

Additional observations from a re-analysis of the deposited data

Results flagged for a closer look

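The limb difference of comp116764_c0 changed with stage (adjusted p = 0.0311, edgeR's limb-by-stage test over 16511 genes and 16 libraries). D was -4.00, -2.48 and -1.54 at stages 13, 14 and 15, and all 8 hind limb libraries stood above all 8 forelimb libraries. The adjusted p was 0.0331 with RLE factors, 0.00564 with no filter on low counts, 0.0429 without stage 13 forelimb replicate 3 and 0.0717 with a replicate block. The forelimb libraries of stage 13 held 4 counts of this gene in all. Stage and the wording of the forelimb labels cannot be told apart between stages 13 and 15.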

How the results depend on the processing

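Of 239 alternative values of 29 results, 178 kept to their limits (counts within 1.5 times, log2 fold changes of named genes within the SD between libraries). A reversed sign was scored only for the 4 named genes, which were picked for large D, and 0 reversed there. In the 2264-base gene, which was not scored, edgeR's stage 13 log2 fold change was 0.32. It was -0.14 without hind limb replicate 2 and -0.12 without hind limb replicate 3, and stayed positive with any other stage 13 library left out. Genes higher in the forelimb numbered 10, but 2 with a limit of 1 on D and 29 without the steadiness condition. Genes higher in the hind limb numbered 5, but 1 with a mean CPM of at least 5, 12 with no limit on length and 11 without the steadiness condition. With each library left out they numbered from 3 (stage 14 or stage 15 forelimb replicate 1) to 10 (stage 14 forelimb replicate 3). The share of signs kept in pairs left out was 84.9%, and 95.6% with a limit of 1. At stage 13, 11 genes were called, but 127 by DESeq2, 34 with no low-count filter, 5 with a count of 10 in every library, 53 in one fit of 16 libraries, and from 5 to 1190 with a library left out. Of the 15, 3 were called, but 7 by DESeq2, 1 with a count of 10 in every library, and from 1 (hind limb replicate 1 left out) to 9 (forelimb replicate 3 left out). At stage 14, 23 were called, but 176 by DESeq2, 35 with no filter and from 8 (forelimb replicate 2) to 43 (hind limb replicate 3) with a library left out. Of the 15, 4 were called, but 7 by DESeq2 and from 1 (any forelimb library or hind limb replicate 1) to 4 with a library left out. At stage 15, 122 were called, but 202 by DESeq2, 347 with no filter, 7 in one fit of 16 libraries and from 92 to 448 (forelimb replicate 1) with a library left out, where the lone library of a group is taken to vary like the other group. Of the 15, 3 were called, but 8 with no filter and from 2 to 7 with a library left out. Without stage 13 forelimb replicate 3 the mean limb difference was called in 297 genes in place of 72, and the limb-by-stage term in 14 in place of 6 (16 with no filter). Without that library 676 genes and 3 of the 15 were called between forelimb stages 13 and 14, in place of 444 and 1, an alternative chosen after seeing the data. The causes were not tested.

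Whether replicate numbers pair the libraries cannot be told from correlations of deviations. Same-numbered correlations were 0.21, -0.11 and 0.20 at stage 13 and -0.071, 0.64 and 0.034 at stage 14. At stage 15 they were 0.21, where 2 libraries per group force every value to 0.21 or -0.21. Some libraries correlated best with their own number and others did not. For forelimb replicate 1 and hind limb replicate 3 of stage 13, whose tables share a number in their names, the correlation was -0.18. With a replicate block, 236 genes and 7 of the 15 were called at stage 15, and the limb-by-stage term called 1 gene and 0 of the 15. At stages 13 and 14 the block gave 12 and 23 genes, and 3 and 4 of the 15. Genes near 3 counts per library are limited by depth.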
